A study of Mus musculus with 8 samples.

Results

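The region described here is a stretch of mouse chromosome 4 from 105.7 Mb to 106.8 Mb (mm10), which holds the position with the highest single difference in replication timing between cells with a Klf4 enhancer deletion and control cells. It was chosen by that deletion minus control difference, so every value of this contrast inside the region is given as a description, and nothing is read from a test of it there. It has 220 of the 30659 measured positions of the chromosome, at steps of 5 kb, or 1100 kb in all. Across it the score ran from late to early replication in all 4 profiles. At a score of 0 this slope lay farther towards the late side in the deletion profiles. The shift was 55.5 kb in one replicate number and 68.8 kb in the other. Replicates of one genotype lay about as far apart there, by 53.2 kb in control and 66.5 kb in deletion profiles. The difference in score was highest at 106235000, at the start of the noncoding gene Gm12724 and in front of Usp24, a gene for an enzyme that removes ubiquitin from proteins.

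The study used Repli-seq on mouse embryonic stem cells. Replicating DNA takes up the thymidine analog BrdU, flow cytometry separates cells of early from those of late S phase, and the BrdU-containing DNA of each fraction is sequenced. The control group was the line JM8N4, and in the other group a Klf4 enhancer was deleted. Klf4 encodes a pluripotency transcription factor and lies on the same chromosome. Both groups had 2 h of BrdU and 40000 cells per fraction, and the 8 libraries form 4 profiles, 2 per genotype, each from 1 early and 1 late library. The position of the deleted enhancer, whether 1 or both alleles were deleted, and whether replicates were separate cultures or clones do not appear in the labels, and the spread between profiles may be technical.

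The deposited table covers chromosome 4 alone and gives scores without read counts, and their depth is unknown. It holds no expression, so the labelled cell type could not be checked against markers. A higher score was taken as earlier replication, and 1037 of 1301 protein-coding genes of the chromosome, which as a class tend to replicate early, scored above 0 in every profile. The median score was -0.79 and -0.37 in control replicates 1 and 2 and -0.73 and -0.21 in deletion replicates 1 and 2. Over all positions the median difference, deletion minus control, was 0.16, with 0.08 within replicate number 1 and 0.22 within number 2. Within a number means the deletion profile minus the control profile that carries the same number.

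Mammalian chromosomes replicate in large domains in which many origins fire at about the same time in S phase. Early domains are rich in genes and open chromatin, while late domains are poor in genes and lie more often at the nuclear periphery. Between them lie timing transition regions, which are crossed by forks that leave the early domain or by origins that fire one after another. A higher score within such a slope and a boundary displaced towards the late domain are the same observation read in 2 directions.

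RefSeq (GRCm38.p6, the same build as mm10) places 24 genes in the region, and 15 of them have an entry in its table of promoters. The windows upstream of 2 noncoding genes are shown because these genes start or lie in the section with the highest differences. Each holds the 250 bases before an annotated start, written 5 prime to 3 prime on the strand of the gene. Capitals mark CACCC or its reverse complement GGGTG, the core of the sequence that Klf4 and its relatives bind.

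Gm12724, chr4:106236872-106237121, plus strand: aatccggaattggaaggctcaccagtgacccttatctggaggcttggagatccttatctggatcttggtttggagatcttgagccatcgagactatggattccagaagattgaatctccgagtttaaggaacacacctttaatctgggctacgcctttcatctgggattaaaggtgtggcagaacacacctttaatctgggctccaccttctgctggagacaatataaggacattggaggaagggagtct

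Gm52671, chr4:106301557-106301806, minus strand: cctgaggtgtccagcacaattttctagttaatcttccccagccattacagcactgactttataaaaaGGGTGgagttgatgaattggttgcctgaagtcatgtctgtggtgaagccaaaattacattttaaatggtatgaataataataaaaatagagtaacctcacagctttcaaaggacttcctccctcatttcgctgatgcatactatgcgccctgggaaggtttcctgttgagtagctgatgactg

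The Gm12724 window lies within the position of the highest difference. It held 0 matches to the motif on either strand and 4 CpG dinucleotides at 46.8% GC. The Gm52671 window shown held 1 match and 2 CpG at 41.2% GC. At another start of Gm52671, at 106293140, the window held 1 match and 9 CpG at 48.4% GC. In all 32851 windows of this length in the table, 52.0% held the motif, the median CpG count was 6 and the median GC content was 52.4%. Usp24 had a window of another kind, with 33 CpG, 76.8% GC and 2 matches. That window is not printed, since another start of the gene lies inside it. A match of these letters is a description and not a bound site.

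The region runs from a late-replicating basin up to an early-replicating plateau. Its lowest score was -2.99 in control replicate 1, -2.04 in control replicate 2, -3.07 in deletion replicate 1 and -1.87 in deletion replicate 2, and all 4 minima lay between 105850000 and 105865000. Its highest score was 3.21 and 3.60 in the control profiles and 3.52 and 3.99 in the deletion profiles. The basin separated the profiles by number and not by genotype, with both number 1 profiles lower than both number 2 profiles. The tops were spread more widely along the chromosome, from 106535000 in deletion replicate 2 to 106730000 in deletion replicate 1.

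Along the slope both deletion profiles rose more steeply than both control profiles. The steepest rise per 100 kb was 1.49 and 1.24 in control replicates 1 and 2, and 1.94 and 1.67 in deletion replicates 1 and 2. The stretch between 25% and 75% of the rise was 310 kb and 291 kb long in control and 270 kb and 185 kb in deletion profiles. The groups did not overlap in either measure, which with 2 profiles per group is a small comparison of values from a region chosen for their difference.

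**Figure D1:**
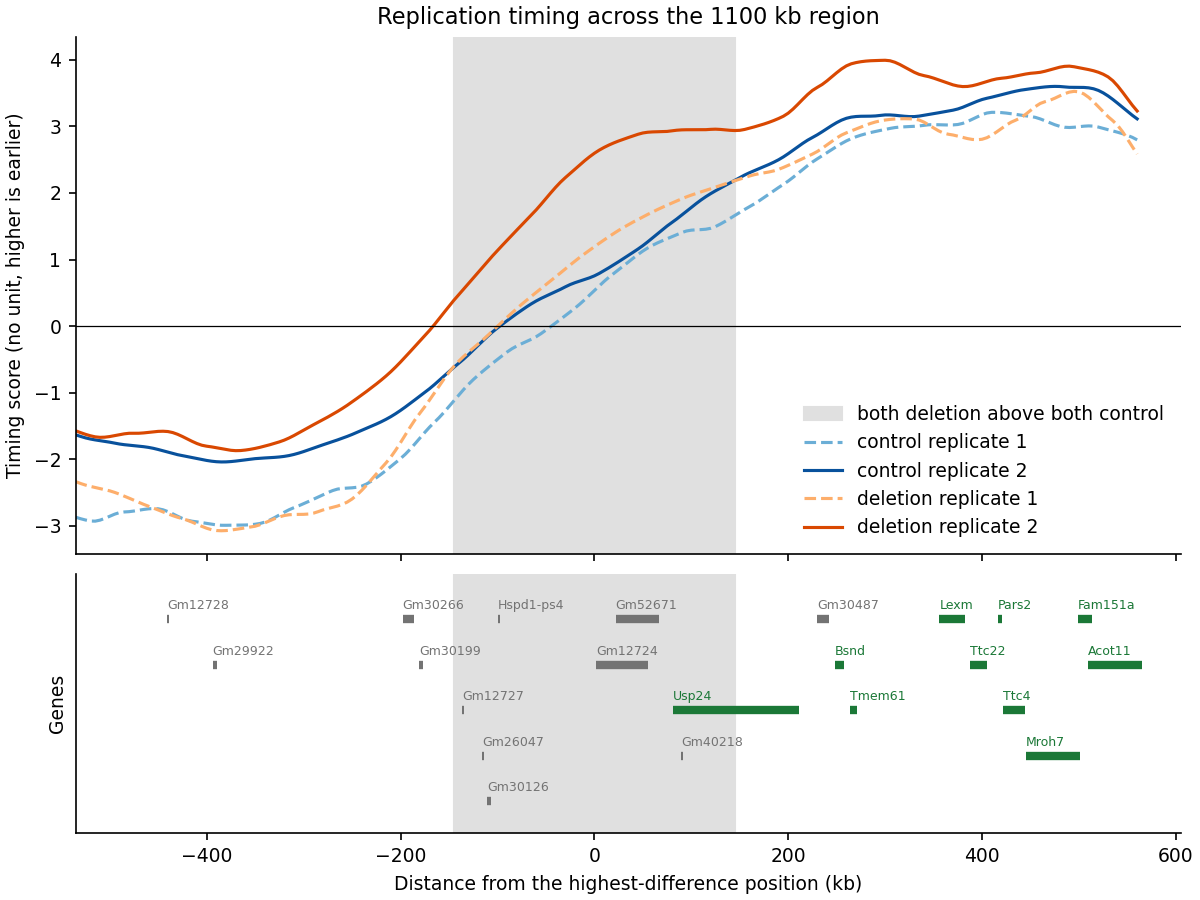
Timing score (no unit, higher is earlier) of the 4 profiles by distance from the position of the highest difference (kb), with the genes named in the text drawn to scale in the lower panel, protein-coding ones in green and the others in grey. The grey band marks the 290 kb in which both deletion profiles lay above both control profiles, and it covers the slope between the late basin and the early plateau.

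At the position of the highest difference, 106235000, the score was 0.53 in control replicate 1, 0.75 in control replicate 2, 1.19 in deletion replicate 1 and 2.60 in deletion replicate 2. Both deletion profiles were higher than both controls, and deletion replicate 2 stood apart from the other three. The means were 0.64 ± 0.16 in control and 1.89 ± 0.99 in deletion profiles (SD, n = 2 each), a difference of 1.25. The difference was 0.66 within number 1 and 1.84 within number 2. It was 0.55 without deletion replicate 2 and 1.95 without deletion replicate 1, values that also change which replicate numbers are compared.

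Over the whole region the mean score was 0.27 and 0.81 in control replicates 1 and 2 and 0.50 and 1.49 in deletion replicates 1 and 2. Here the groups overlapped, since deletion replicate 1 lay below control replicate 2. The means of 0.54 ± 0.38 and 0.996 ± 0.70 (SD, n = 2 each) differed by 0.45, or 0.30 relative to the median difference of the chromosome. The difference was 0.23 within number 1 and 0.68 within number 2. It was -0.045 without deletion replicate 2, where deletion replicate 1 is set against controls of both numbers. Leaving out deletion replicate 1 gave 0.95. Leaving out control replicate 1 gave 0.18, and leaving out control replicate 2 gave 0.72.

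The difference formed 1 broad peak on the slope. It was at least 0.5 times its highest value from 106065000 to 106384999, a span of 320 kb, and the step between neighbouring positions had a median of 0.03 and a maximum of 0.12. In the 3 segments of 100 kb between 105.7 Mb and 106 Mb, in the late basin, the difference was 0.21, 0.08 and 0.10. On the slope it was 0.54, 0.90, 1.18 and 0.79 in the next 4 segments. It was 0.44 and 0.40 in the following pair, 0.06 between 106.6 Mb and 106.7 Mb and 0.27 in the last segment.

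The edges of the region were not marked by a step in the difference. The first position inside had a difference of 0.30 and the last position before it also had 0.30. At the other end the last position inside had -0.05 and the first position beyond had -0.07. On the plateau the mean difference had its lowest value of the region, -0.06 at 106635000, and was higher again at 106725000, with 0.42.

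Both deletion profiles lay above both control profiles at 58 positions, in 1 unbroken run of 290 kb from 106090000 to 106379999. This is 26.4% of the region, against 16% of all positions of the chromosome, and the choice of the region used this contrast, so nothing is read from the count. No position of the region had both deletion profiles below both controls. Within the run the mean score was 0.45 and 0.81 in control replicates 1 and 2 and 1.02 and 2.19 in deletion replicates 1 and 2. The difference was 0.98 in the run and 0.26 over the other 162 positions.

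The count of such positions depended on how the profiles were centred and on single profiles. After centring each profile on its own median it was 125 above and 2 below, where the shares of the chromosome were 17.4% and 12.1%. After quantile normalization it was 97 above and 13 below, where the shares were 14.4% and 14.9%. Over the chromosome, 73.2% of the positions without overlap had the deletion profiles above, which became 59.0% after median centring and 49.0% after quantile normalization. These scalings brought the median difference of all positions from 0.16 to 0.046 and 0.0052. Without control replicate 2 the count above was 154 and without deletion replicate 1 it was 220. Leaving out a profile loosens the criterion, so the count can then only stay or rise. The share of the chromosome was not taken for these counts, and nothing is read from them.

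The 2 replicate numbers had the same sign on the slope and often opposite signs elsewhere. Within number 1 the difference was highest at 106215000, with 0.71, and it was at least 0.5 times that value over 365 kb. Within number 2 it was highest at 106240000, with 1.85, and it was at least 0.5 times that value over 285 kb. The 2 maxima lay near each other. The number 2 difference was the larger of the pair at 195 of the 220 positions. Its median over the chromosome was also the larger, with 0.22 against 0.08 within number 1. The share of the chromosome with this order was not taken, so nothing is read from the count of 195.

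Number 2 was positive at all 220 positions, with its lowest value of 0.05 at 105720000. Number 1 was positive at 154 positions and negative at 66, with its lowest value of -0.37 at 106640000 on the early plateau. Both numbers were therefore positive at 70% of the region, against 47.3% of the chromosome, again a count that the choice of the region touches. The rank of the peak also differed by number. No position of the chromosome had a number 2 difference above 1.85, while 977 positions, or 3.19%, had a number 1 difference above 0.71, and the highest of these was 1.34 at 60915000.

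**Figure D2:**
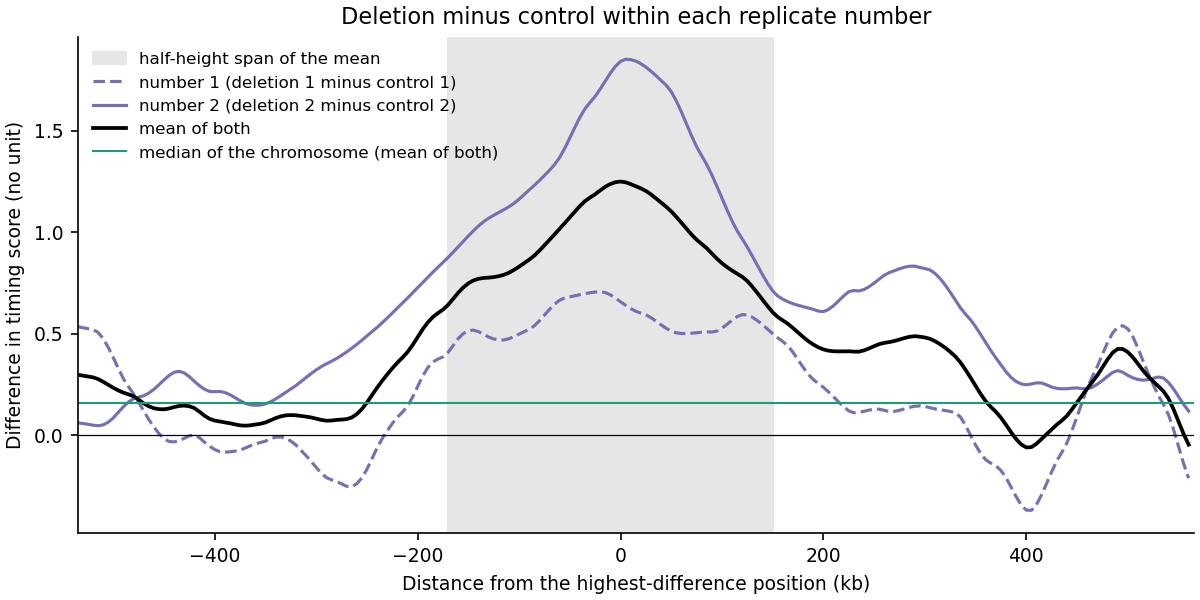
Difference in timing score (no unit), deletion minus control, within replicate number 1, within number 2 and for their mean, by distance from the highest mean difference (kb). The grey band is the 320 kb where the mean difference is at least 0.5 times its highest value of 1.25, the green line is the chromosome median of 0.16, and both numbers peak inside the band, at 0.71 and 1.85.

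By segment, the number 1 difference was -0.04 and -0.15 between 105.8 Mb and 106 Mb, 0.30 and 0.56 in the next pair of segments, 0.62 at its highest and 0.53 after that. The number 2 difference in the same 6 segments was 0.21, 0.36, 0.79, 1.25, 1.75 and 1.06. Both were highest in the same segment, with number 2 at 1.75 where number 1 was at 0.62. Farther into the plateau they parted, with -0.16 in number 1 and 0.27 in number 2 between 106.6 Mb and 106.7 Mb.

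The slope was also described by where each profile passed a fixed score. A score of 0 was passed at 106190676 in control replicate 1, 106137506 in control replicate 2, 106135197 in deletion replicate 1 and 106068672 in deletion replicate 2. Both deletion profiles passed 0 farther towards the late basin than both control profiles, although control replicate 2 and deletion replicate 1 lay close to each other. The shift was 55.5 kb within number 1 and 68.8 kb within number 2. The 2 control profiles themselves were 53.2 kb apart and the 2 deletion profiles 66.5 kb apart, so the shift between genotypes was about as large as the distance between replicates of one genotype.

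The shift grew towards the early side of the slope. At a score of -1 it was 27.1 kb within number 1 and 61.4 kb within number 2, and the groups overlapped, since deletion replicate 1 passed it at 106070113 and control replicate 2 at 106059593. At a score of 1 it was 56.3 kb and 137 kb, and at a score of 2 it was 75.2 kb and 166 kb. At 1 the control profiles passed at 106273340 and 106263573, only 9.77 kb apart, and the deletion profiles at 106217090 and 106126605, which are 90.5 kb apart. Both deletion profiles were on the late side of both controls at 0, 1 and 2.

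**Figure D3:**
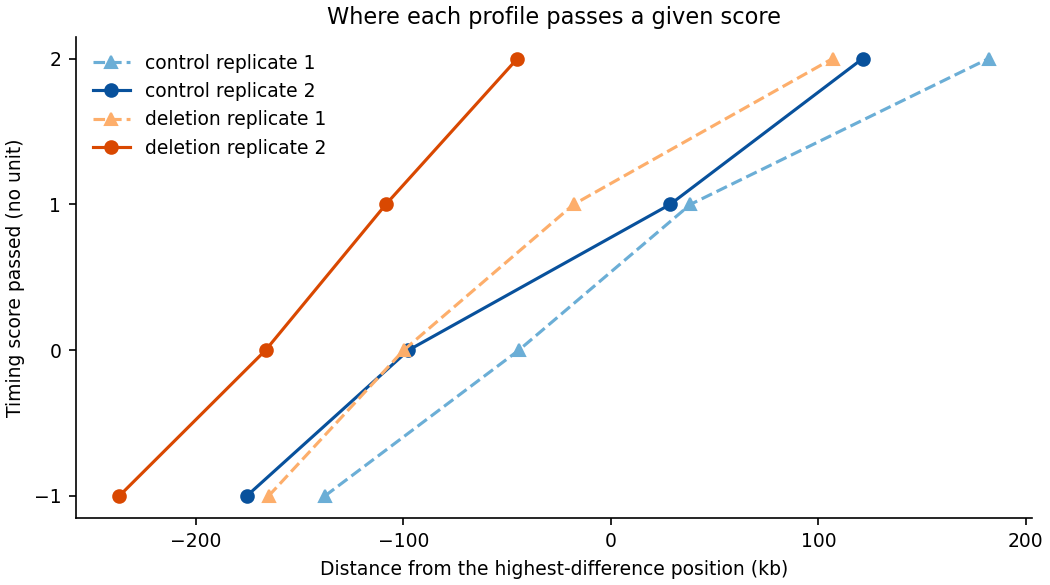
Distance from the highest-difference position (kb) at which each of the 4 profiles passed a timing score of -1, 0, 1 and 2 (no unit). Deletion replicate 2 lies farthest to the left at every score, and at a score of 0 deletion replicate 1 and control replicate 2 nearly coincide.

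Taken from the mean of each genotype, the shift at 0 was -64.7 kb, where a negative sign means towards lower coordinates and the late basin. It was -26.3 kb without deletion replicate 2 and -40.7 kb without control replicate 1, and -92.8 kb and -93.8 kb without the other profile of each genotype. After each profile was centred on its own median, which takes out the overall displacement between profiles, it was -39.2 kb, and after quantile normalization -58.2 kb.

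The same measure was set against the other timing transitions of the chromosome. The mean control profile passed 0 at 81 places, of which 74 could be followed in all 4 profiles, and 1 of these lay in the region. The gain of the early side there was exceeded at 6 transitions within number 1 and at 7 within number 2, with medians of -5.67 kb and 6.10 kb over the 74. Only 1 other transition, at 14933182, had a gain at least as large in both numbers, with 69.1 kb and 79.1 kb. In the other direction, transitions at 55736385, 63017488, 63141608 and 131176267 lost more in both numbers than the region gained. The largest of these losses was at 63141608, with -163 kb and -183 kb. The early side gained in both numbers at 19 of the 74 transitions, or 25.7%. It gained at 30 within number 1 and at 43 within number 2.

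The slope of the mean control profile at the crossing was 1.001 per 100 kb, close to the median of 1.01, and 37 transitions were steeper. The gain of the early side in control replicate 2 over control replicate 1 was 53.2 kb there, a signed value that the choice of the region did not use. Its median over the transitions was 35.1 kb, and it was larger at 25 of them. The transition of the region was thus of ordinary steepness. Its gain of the early side was among the larger gains in both numbers, without being the largest in either. The region was chosen by the deletion minus control difference, which a displaced slope also raises, so nothing is read from this rank.

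**Figure D4:**
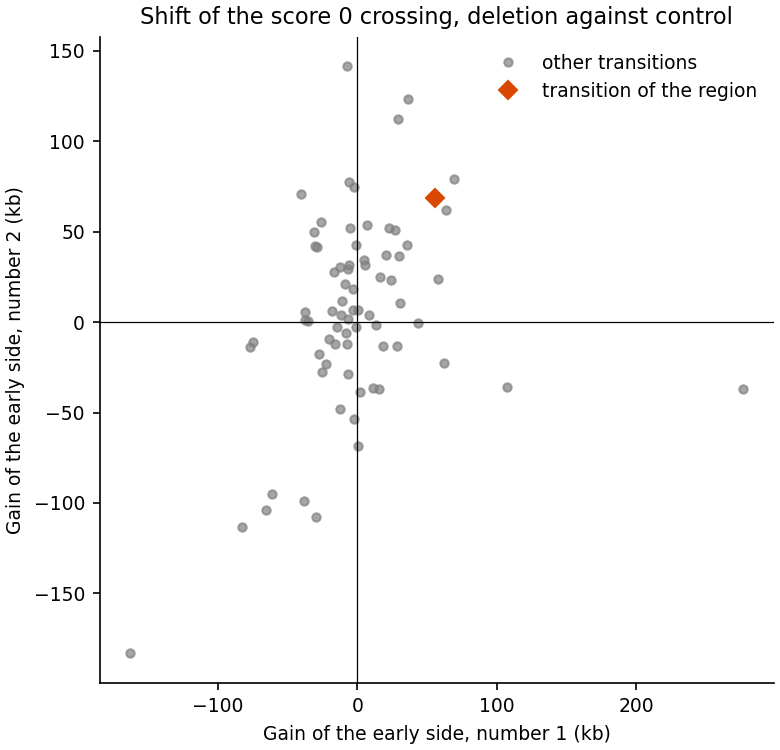
Gain of the early side (kb) at each of the 74 transitions, within replicate number 1 on the horizontal axis and within number 2 on the vertical axis, where a positive value means that the early side is longer in the deletion profile. The region's transition, at 55.5 kb and 68.8 kb, lies in the upper right, and 1 other point exceeds it on both axes.

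The slope below Usp24 held lncRNA genes, pseudogenes and a snoRNA gene. Between Plpp3, which encodes a lipid phosphate phosphatase and lies before the region, and Usp24 no protein-coding gene was annotated over 1083 kb, and 17 of the 1191 gaps between such genes on the chromosome were longer. The highest-difference position lies 1002 kb beyond Plpp3 and 81.0 kb before Usp24. Of the 24 genes of the region, 12 encode proteins, and these all lie on the early side. The others were 8 lncRNA genes, 3 pseudogenes and 1 snoRNA gene, most of them on the slope and in the basin.

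Gm12724, a lncRNA gene at 106237122 to 106290547, starts in the position of the highest difference. Its mean score was 0.87 and 0.996 in control replicates 1 and 2 and 1.45 and 2.78 in deletion replicates 1 and 2. Both deletion values were above both controls, with deletion replicate 2 far above the rest. The difference was 1.18, with 0.58 within number 1 and 1.78 within number 2, and it was 0.52 without deletion replicate 2 and 1.85 without deletion replicate 1. Gm52671, a lncRNA gene whose span overlaps it and ends at 106301556, had 1.04 and 1.14 in control and 1.58 and 2.85 in deletion profiles, a difference of 1.13. These overlapping genes share most of their positions and are not separate observations.

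Lower on the slope lie the pseudogene Gm12727, the snoRNA gene Gm26047, the lncRNA gene Gm30126 and Hspd1-ps4, a pseudogene of the mitochondrial chaperonin Hspd1. Gm12727 at 106098836 scored -1.04 and -0.56 in control and -0.53 and 0.47 in deletion profiles, a difference of 0.77. Hspd1-ps4 at 106135714 scored -0.50 and -0.03 in control and -0.0027 and 1.13 in deletion profiles, a difference of 0.83. In all 4 genes deletion replicate 1 lay just above control replicate 2, and only deletion replicate 2 had a score above 0. Gm26047 and Gm30126 lay between these with differences of 0.78 and 0.79.

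Farther into the late basin the noncoding genes differed less. Gm30199 had -1.72 and -1.08 in control and -1.36 and -0.26 in deletion profiles, and Gm30266 had -1.92 and -1.21 in control and -1.63 and -0.46 in deletion profiles. In both, deletion replicate 1 lay between the controls, so the groups overlapped, and the differences were 0.59 and 0.52. That of Gm30266 was 0.29 within number 1. It turned negative without deletion replicate 2, where deletion replicate 1 is set against controls of both numbers. Gm12728 and Gm29922, deepest in the basin, differed by 0.13 and 0.06, and the sign of these small values turned when the profiles were scaled in another way.

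The 12 protein-coding genes all had scores above 0 in every profile, from 1.72 to 3.93. Their differences ran from -0.03 to 0.65 with a median of 0.32, against 0.14 for all 1301 protein-coding genes measured. Usp24 was the only one with both deletion profiles above both controls, against 15.1% of all such genes, and 8 of the 12 had a positive difference in both numbers, against 43.7% of all. In 10 of the 12 the number 2 difference was the larger, as was its median over all positions of the chromosome. The share of all genes with this order was not taken. With limma and Benjamini-Hochberg adjustment, 0 of 1301 genes differed between genotypes, or 0%, and 17 had an unadjusted p under 0.05.

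Usp24, at 106315980 to 106446613, lies at the upper end of the slope. It scored 1.72 and 2.16 in control replicates 1 and 2 and 2.17 and 3.01 in deletion replicates 1 and 2. Deletion replicate 1 and control replicate 2 were nearly equal, so the groups were separate by a narrow margin. The means were 1.94 ± 0.31 and 2.59 ± 0.60 (SD, n = 2 each), and the difference was 0.65, or 0.50 relative to the chromosome. It was 0.45 within number 1 and 0.85 within number 2, and it came to 0.23 when deletion replicate 2 was left out and to 1.07 when deletion replicate 1 was. Leaving out control replicate 1 gave 0.43, and leaving out control replicate 2 gave 0.87. Gm40218, a lncRNA gene inside it, had 1.39 and 1.64 in control and 1.90 and 2.94 in deletion profiles.

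Farther along the plateau, Bsnd, which encodes the barttin subunit of kidney and inner ear chloride channels, scored 2.70 and 3.05 in control and 2.82 and 3.803 in deletion profiles. Tmem61, a gene for a transmembrane protein beside it, scored 2.81 and 3.13 in control and 2.93 and 3.93 in deletion profiles, the last of which was the highest single score of the coding genes. Gm30487, a lncRNA gene before Bsnd, scored 2.53 and 2.90 in control and 2.65 and 3.61 in deletion profiles. In each of these genes deletion replicate 1 lay between the controls and deletion replicate 2 above them.

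The differences of these plateau genes came mainly from number 2. The difference of Bsnd was 0.13 within number 1 and 0.75 within number 2, and that of Tmem61 was 0.12 and 0.80. That of Gm30487 was 0.11 within number 1 and 0.71 within number 2. Without deletion replicate 2, where deletion replicate 1 is set against controls of both numbers, the difference of all 3 genes turned negative.

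The next genes, Lexm, Ttc22, Pars2 and Ttc4, had opposite signs in the 2 numbers. Pars2, for the mitochondrial prolyl-tRNA synthetase, scored 3.21 and 3.46 in control and 2.94 and 3.72 in deletion profiles. The deletion values enclosed the control values in each of the 4 genes. The mean differences were 0.13, -0.03, -0.01 and 0.05 in the order named, and those within number 1 were -0.15, -0.33, -0.27 and -0.13. Ttc4, for a chaperone-binding protein with tetratricopeptide repeats, and Lexm changed the sign of their difference with the scaling.

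At the end of the region the numbers came together again. Mroh7 scored 3.05 and 3.58 in control and 3.39 and 3.85 in deletion profiles, and Fam151a scored 2.997 and 3.58 in control and 3.49 and 3.87 in deletion profiles. In both, deletion replicate 1 lay between the controls. The differences within numbers 1 and 2 were 0.34 and 0.27 for Mroh7 and 0.49 and 0.29 for Fam151a, so here number 1 had the larger one. Acot11, which encodes an acyl-CoA thioesterase and runs across the end of the region, scored 2.90 and 3.34 in control and 2.996 and 3.56 in deletion profiles, a difference of 0.16 that changed sign after quantile normalization.

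Genes just outside had smaller differences than Usp24. On the late side Plpp3 scored 0.76 and 1.34 in control and 0.76 and 1.31 in deletion profiles, almost the same values in each number. Prkaa2, which encodes a catalytic subunit of the energy sensor AMPK, differed by -0.03, and Fyb2 by 0.0032, with a sign that depended on the scaling. On the early side Ssbp3, Mrpl37 and Cyb5rl differed by 0.27, 0.13 and 0.11, and the last pair changed sign under at least 1 scaling.

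**Figure D5:**
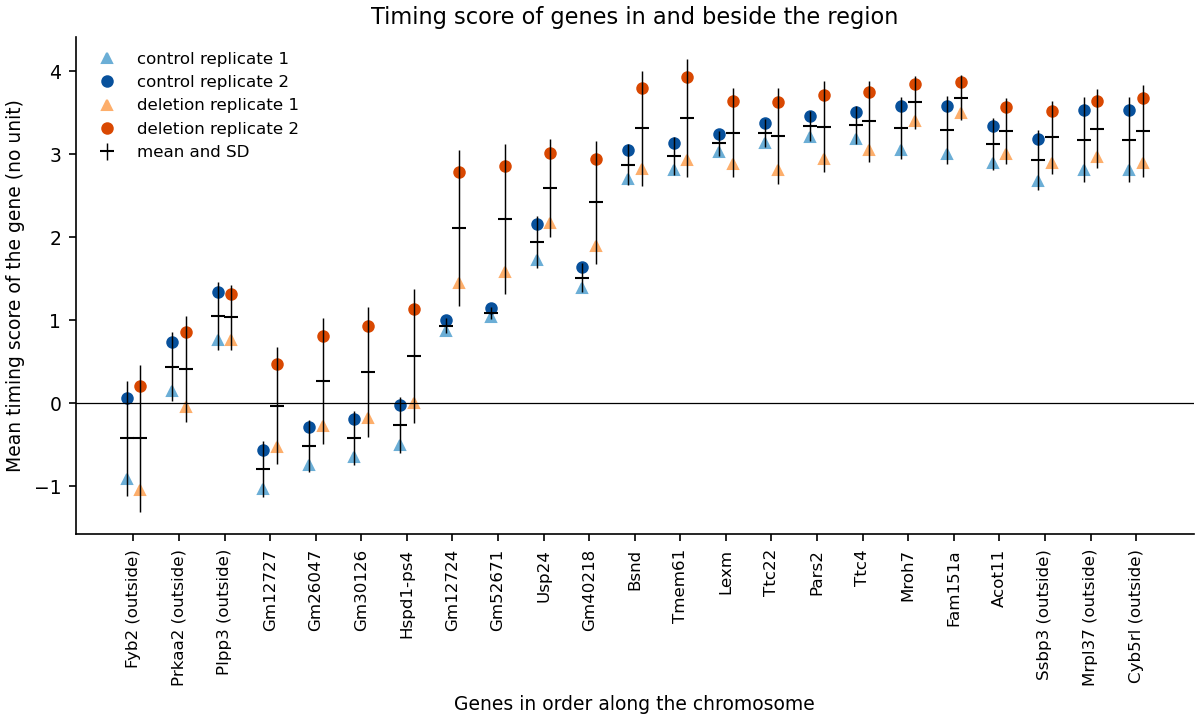
Mean timing score (no unit) of the genes named in the text, from the highest-difference section upward, and of the 3 nearest protein-coding genes on each side, in chromosomal order. Points are the 4 profiles, with the mean and SD (n = 2) of each genotype beside them, and the points of the 2 genotypes separate from Gm12727 to Gm40218 and overlap in the others shown.

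The difference between replicate numbers was not itself used to choose the region. It was tested, but it shares the high score of deletion replicate 2 with the contrast that was used. The spread between replicates was unequal in the genotypes, so the test inside the region is not free of that choice. The p-value and counts of this test there are given as descriptions only. At 106235000, number 2 minus number 1 was 0.81 (SE 0.23) with genotype in the model (limma, adjusted p = 0.00439). Of the 220 positions, 173 differed between numbers, against 40.8% of all positions. They ran without a break from the start of the region to 106540000 and again from 106755000 to 106770000, all with the number 2 score higher. After centring each profile on its median, 37 of the 220 passed, a lower share than the 6245 of 30659 over the chromosome. All 37 still had the number 2 score higher. Over the chromosome the direction turned, from 11122 positions higher and 1378 lower in number 2 to 1678 higher and 4567 lower after centring. A separate limma fit with genotype alone and no term for the number, which is not comparable with these counts, called 0 of 30659 positions, or 0%, between genotypes, and 299 had an unadjusted p under 0.05.

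The spread between replicates was unequal in the 2 genotypes. Control replicate 2 exceeded control replicate 1 by 0.22 at 106235000, less than at 60.2% of all positions, and the distance within the region ran from 0.08 at 106285000 to 1.24 at its first position. Deletion replicate 2 exceeded deletion replicate 1 by 1.40 at 106235000, and 3.12% of all positions had more. Its median in the region was 1.01 against 0.45 over the chromosome, while for control it was 0.49 against 0.33. The number 2 difference exceeded the number 1 difference by 1.18 at 106235000, and 1.13% of positions had more. The part of this spread in the highest difference was not tested.

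In 2 other windows of 500 kb with higher deletion scores, 1 with Bnc2, a zinc finger gene, and 1 with Rnf11, a RING finger gene, and Ttc39a, both numbers also had positive mean differences. The Bnc2 window had mean scores of 0.62 and 1.31 in control and 1.33 and 2.16 in deletion profiles, with differences of 0.71 and 0.84 within numbers 1 and 2. The window of Rnf11 and Ttc39a had 1.89 and 1.81 in control and 2.22 and 2.58 in deletion profiles, with 0.34 and 0.77. The numbers were thus close in the Bnc2 window, and in the other they lay about as far apart as the 0.23 and 0.68 of the region near 106 Mb. The highest single difference was 1.22 in the Bnc2 window and 0.90 in the other. That of the Bnc2 window lay at its edge, at 84280000, so it is not a peak inside the window. Both windows had a mean control score above 0 throughout, while the region near 106 Mb ran from -2.51 to 3.36. Both were chosen for the same contrast, so they were compared as descriptions only.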

How the data were processed

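The authors made 1 timing score per profile and 5 kb position from an early and a late library, and brought the profiles to a common interquartile range, per the file headers and name. The deposited scores have no stated log base, although the plan assumed log ratios, and limma was run on them unchanged. Bowtie2, SAMtools, bedtools and mm10 are named in the submitters' processing notes without versions, and a smoothing method is named nowhere. Of 31301 positions, 639 were empty throughout and 3 in deletion profiles, which left 30659. A position was read as the start of its bin.

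Columns were matched to groups by name, since the labels number the second replicates alone. Genes (RefSeq, GRCm38.p6, 1301 of 1328 protein-coding ones measured) took the average score of the bins they touch. Crossings were interpolated linearly and transitions followed within 250 kb. limma 3.58.1 in R 4.3.3 ran over all positions or genes, two-sided, with Benjamini-Hochberg adjustment at 0.05, and was tested on simulated data. Its p-values measure only the spread between these profiles. Named genes are the protein-coding genes of the region, the nearest 3 on each side and the noncoding genes of the highest-difference section, except 2 that are not reported here. The other basin genes were added after their values were seen. The region, lists and compared windows were chosen with earlier results of these data known. Alternatives were other scalings, 50 kb bins, positions read as bin ends, trend and robust options, a minimum of 0.5, a replicate block and each profile left out.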

Additional observations from a re-analysis of the deposited data

How the results depend on the processing

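With each profile left out in turn, the mean difference of the region ran from -0.045 to 0.95 and the highest single difference from 0.55 to 1.95. The span at 0.5 times the highest difference ran from 220 to 415 kb, and the shift at a score of 0 from -93.8 to -26.3 kb. The count of positions with the deletion profiles above the controls ran from 58 to 220. The mean difference was -0.045 without deletion replicate 2, the only reversal among these results. With a profile left out, other replicate numbers are compared, and the count of positions with the deletion profiles above can only stay or rise. Median centring, and scaling by the median and interquartile range of a profile, both gave a shift of -39.2 kb. Both also gave 125 positions with the deletion profiles above the controls, and quantile normalization gave 97. At a score of 2, a level chosen after seeing the data, the shift was -142 kb. The highest difference was 1.06 to 1.25 over the scalings.

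Positions that differed between numbers fell from 12500 to 6245 with median centring, 5964 with quantile normalization and 6248 with own median and range. Positions that differed between genotypes (limma) numbered 0 in the scalings and 57 without deletion replicate 2, all later in deletion profiles (range 0 to 57 over the profiles left out). Genes numbered 0 to 4, with 4 without deletion replicate 1. With the replicate number as a block, 785 positions passed, 640 of them higher and 145 lower in deletion profiles, and 0 genes. Of these positions 55 were among the 220 of the region, against 785 of 30659 over the chromosome. The region was chosen by this contrast, so nothing is read from the count. The labels do not state a pairing, and with 2 pairs it cannot be settled: the number 2 minus number 1 difference correlated at 0.637 between genotypes over positions and at 0.183 inside the region. Of 30 genes followed under 8 alternatives, 19 changed the sign of their difference under at least 1, and 8 of these under a scaling.

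The values rest on 2 profiles per genotype, the depth is unknown, and the region was chosen by the contrast described.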

Other observations

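Beyond the early end of the region lay another run in which both deletion profiles were above both controls, from 107190000 to 107324999, with 27 positions over 135 kb. Its mean score was 2.83 and 3.22 in control replicates 1 and 2 and 3.37 and 3.66 in deletion replicates 1 and 2. The difference was 0.49, with 0.54 within number 1 and 0.44 within number 2, so here number 1 had the larger one. The run holds Tmem59, Ldlrad1, Lrrc42, Hspb11, Dio1 and Yipf1, among them Dio1 for the deiodinase that activates thyroid hormone in liver and kidney. Farther on, a run of 30 kb from 107645000 to 107674999 had both deletion profiles below both controls, with 1.56 and 1.56 in control and 1.27 and 1.52 in deletion profiles. These runs were picked for the contrast they show and were not tested.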
